A study of Mus musculus with 31 samples.

Results

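Mouse induced pluripotent stem cells (iPSCs) that lack Nos3 were compared with the embryoid bodies grown from them over 11 days, on 12 of the 31 Affymetrix arrays of the series. The arrays were taken by their labels, 6 of Nos3-/- iPSCs at day 0 and 6 of Nos3-/- embryoid bodies at day 11, and the genes are those of the 34958 probe sets with 1 symbol, of 45101 in the table. Each of the 18194 genes was read on the probe set with the highest mean level. The iPSCs had been reprogrammed by Sendai virus, starting from fibroblasts of the tail tip of male adults of the strain B6.129P2-Nos3tm1unc/J, which carries a disrupted Nos3. At day 0 they lay on growth-arrested mouse embryonic fibroblasts (feeder cells), and by day 11 they had differentiated spontaneously as aggregates formed in AggreWell plates. Control cells, used here for a comparison of the changes, came from wild-type CD1 males in the same way, with 10 arrays at day 0 and 9 at day 11. Genotype and strain cannot be told apart in this design. The labels do not say whether the arrays of a group came from separate clones or cultures, so the spread behind each p-value may be only technical, and the number of arrays limits the precision.

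Embryoid bodies mimic parts of the early embryo: cells leave the pluripotent state, which the factors Oct4 (Pou5f1), Sox2 and Nanog hold in place, and form derivatives of mesoderm, endoderm and ectoderm side by side. Beating heart muscle, blood vessels, primitive blood and yolk sac cells are commonly seen in them. Nos3 encodes endothelial nitric oxide synthase, which makes nitric oxide in blood vessels and in the developing heart. Each array measured a mixed population, so fewer cells of a type and less RNA per cell cannot be told apart. The labels do not say that feeders were removed before RNA was taken, so day 0 RNA can include theirs, and whatever leaves with the feeders is part of the same comparison.

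Levels are log2 values, on which 1 unit is a 2-fold difference. A change is the day 11 mean minus the day 0 mean, given with its standard error (SE), and a gene passed where limma's moderated test gave an adjusted p under 0.05, by Benjamini-Hochberg over the 34958 probe sets. Where a gene list is given with 0 genes higher or 0 lower, 0 to 4 of its genes had an unadjusted limma p under 0.05 in that direction. Nos3 itself ran from 6.73 to 7.13 (median 7.06) at day 0 and from 6.70 to 7.06 (median 6.91) at day 11. The groups overlapped, and its change of −0.10 ± 0.10 did not pass (adjusted p = 0.478). Which part of the gene the probe set covers was not analysed here, so this level does not check the deletion.

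Of the 18194 genes, 1610 rose (8.85%) and 2158 fell (11.9%), which is 20.7% in either direction. At least 2-fold changes were passed by 302 higher genes (1.66%) and 449 lower genes (2.47%). The arrays of both days did not overlap for 1384 of the passing genes (7.61%), of which 577 were higher and 807 lower. The median change over all genes was −0.06. Leaving out day 11 replicate 1 or day 11 replicate 2 brought the calls to 2385 and 2399, and leaving out day 11 replicate 3 brought them to 4791.

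The third day 11 array stood apart. Its level lay more than 2 log2 units from the mean of the other 5 day 11 arrays for 393 genes, against 4 to 31 genes for each of the others, and its correlations with them were 0.960 to 0.963. Among the day 0 arrays the same count was 241 for replicate 3, 71 for replicate 1, 60 for replicate 5 and 6 to 15 for the rest. Without day 11 replicate 3, 2180 genes rose (12%) and 2611 fell (14.4%), and 3505 of the 3768 calls (93.02%) were shared, in the same direction. Without both arrays numbered 3, an alternative added after seeing the data, 2548 rose (14%) and 3039 fell (16.7%), with 3511 of the calls shared. Counts of gene lists below are given on the 12 arrays, and for many lists also without single arrays. They are to be read beside 8.85% higher and 11.9% lower over all genes on the 12 arrays. Without day 11 replicate 3 these shares are 12% and 14.4%, and without both arrays numbered 3 they are 14% and 16.7%.

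**Figure D1:**
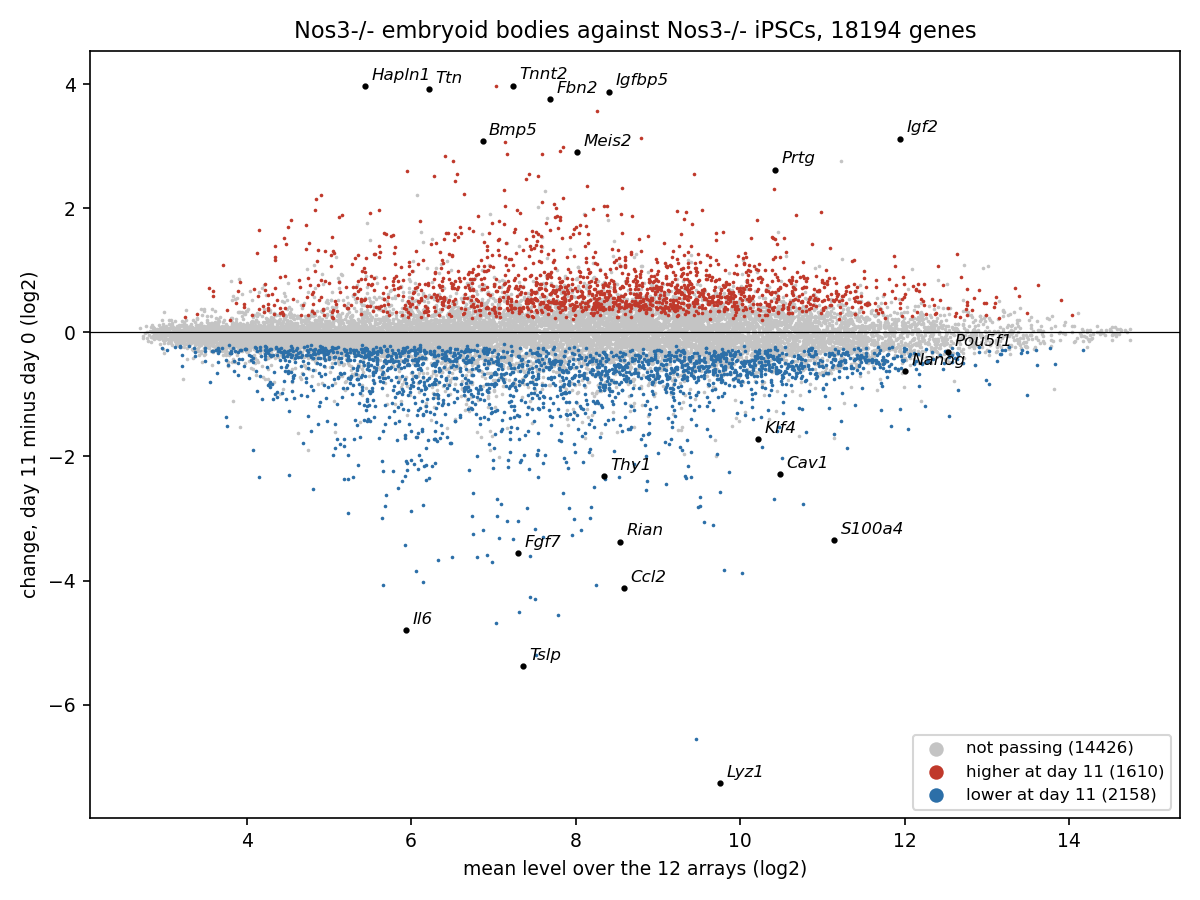
Change from day 0 to day 11 (y axis, log2) against the mean level over the 12 arrays (x axis, log2) for 18194 genes, with 1610 higher genes in red, 2158 lower genes in blue and 14426 not passing in grey. Lyz1 lies lowest at −7.26, muscle and matrix genes such as Tnnt2 and Hapln1 lie near 4, and Pou5f1 and Nanog lie close to 0 at a high mean level.

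The pluripotency genes were still at high levels on most day 11 arrays. Of 33 measured, 0 rose and 2 fell, which is not above the 8.85% and 11.9% over all genes. The list's median change was −0.56, against −0.06 over all genes. Without day 11 replicate 3 the counts were 2 and 3, against 12% and 14.4% over all genes. Without both arrays numbered 3 they were 2 and 15, against 14% and 16.7%. The number lower was 9 without day 0 replicate 3, and 0 without day 0 replicate 2 or day 11 replicate 1, 2 or 6. The mean level of the list was 9.19 to 11.36 at day 0, lowest in replicate 3, and 8.78 to 11.10 at day 11, lowest in replicate 3 and highest in replicate 4. Markers of pluripotent cells were well represented in the day 0 arrays, as the labels would have it, with a mean level of 10.00 to 12.27 over 8 genes.

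Pou5f1, the factor Oct4, ran from 11.55 to 12.99 (median 12.93) at day 0 and from 12 to 12.94 (median 12.30) at day 11. The low day 0 value is that of replicate 3, and the days overlapped. Its change was −0.32 ± 0.24 (adjusted p = 0.362), and without day 0 replicate 3 it was −0.55 and passed (adjusted p = 0.0180). Nanog behaved alike on the arrays, with 10.57 to 13.34 at day 0 and 10.89 to 12.45 at day 11, a change of −0.63 ± 0.39 (adjusted p = 0.271), and −0.98 without day 0 replicate 3 (adjusted p = 0.0200). Sox2 changed by −0.21 ± 0.38 (adjusted p = 0.730), Esrrb by −0.69 ± 0.79 (adjusted p = 0.568) and Dppa5a, an RNA-binding protein of pluripotent cells, by −0.92 ± 0.64 (adjusted p = 0.325), none passing.

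Klf4, a factor of the naive state and of reprogramming, lay between 8.87 and 11.93 (median 11.47) at day 0 and between 7.11 and 10.54 (median 9.60) at day 11. On each day replicate 3 was the lowest array. The change of −1.72 ± 0.61 missed the threshold (adjusted p = 0.0631), and it passed without day 0 replicate 3 (−2.16, adjusted p = 0.0117) and without day 11 replicate 4 (−1.95, adjusted p = 0.0499). Zfp42 (Rex1), which is shut early when cells leave the naive state, had 9.32 to 10.81 on 5 day 0 arrays and 5.92 in replicate 3, and 7.60 to 9.38 on 5 day 11 arrays and 4.06 in replicate 3. Its change of −1.61 ± 0.94 did not pass (adjusted p = 0.237), and without both arrays numbered 3 it was −1.56 (adjusted p = 0.00914). The 200 bases before its start are printed because they hold the octamer core TTTGCAT, part of the sequence that Oct4 binds.

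Zfp42: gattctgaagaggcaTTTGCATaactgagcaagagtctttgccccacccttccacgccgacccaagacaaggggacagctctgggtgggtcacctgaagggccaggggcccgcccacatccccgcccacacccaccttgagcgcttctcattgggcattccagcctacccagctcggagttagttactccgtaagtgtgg

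The stretch is chr8:43307010-43307209 on the minus strand of GRCm38.p6, from RefSeq, and the capitals mark the octamer core, 179 bases before the start. Searched on both strands, the core was found in 4 of 28 promoters of the pluripotency list (14.3%), against 1076 of 32851 promoters in all (3.28%) and 0 of 34 of the sarcomere list. A gene with several starts counts once for each, and a match describes letters, not a bound site.

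The genes that fell in this list were Tdgf1 and Eras. Tdgf1 (Cripto), the co-receptor of Nodal, fell by 0.77 ± 0.21 (adjusted p = 0.0232), from 13.11 to 13.59 at day 0 to 12.14 to 13.29 at day 11. The call was lost without day 0 replicate 2 or without day 11 replicate 1, 2 or 6, at adjusted p of 0.0506 to 0.0564. Eras, a Ras protein of embryonic stem cells, fell by 0.93 ± 0.28 (adjusted p = 0.0359), with no overlap between the days. That call was lost when any of day 0 replicates 1 to 5 or day 11 replicates 1, 2 and 6 was left out, at 0.0507 to 0.0663.

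The list of the formative epiblast, the state between the naive cell and gastrulation, had few passing genes. Of its 19 genes 1 rose and 2 fell, which is not above the 8.85% and 11.9% over all genes, with a median of −0.02. The number lower was 4 without day 11 replicate 3, and 1 without day 0 replicate 2, 4 or 6 or day 11 replicate 1, 2, 5 or 6. Nodal, the ligand that patterns the epiblast, fell by 0.84 ± 0.13 (adjusted p = 0.00165), from 10.67 to 11.29 (median 11.04) at day 0 to 9.91 to 10.48 (median 10.07) at day 11, without overlap. Its inhibitor Lefty2 fell by 2.02 ± 0.64 (adjusted p = 0.0412), a call lost without day 0 replicate 2, 3, 4 or 6 or day 11 replicate 1, 2, 5 or 6, at 0.0621 to 0.0919. Lefty1, the related inhibitor, changed by −1.11 ± 0.40 (adjusted p = 0.0651) and passed without day 0 replicate 5 or day 11 replicate 3, at −1.39 and −1.35 (adjusted p = 0.0206 and 0.0197). Sall2, a zinc finger gene, rose by 1.74 ± 0.32 (adjusted p = 0.00352). Fgf5, the classical marker of the primed epiblast, spread over 7.85 to 12.83 at day 0 and 8.57 to 10.39 at day 11, and its change of −0.49 ± 0.66 did not pass (adjusted p = 0.626).

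Germline genes gave 0 higher and 1 lower of 27, which is not above the 8.85% and 11.9% over all genes. Without day 0 replicate 3, 4 were lower, where 2499 of all 18194 genes were. Dnd1, an RNA-binding protein of germ cells, fell by 1.09 ± 0.28 (adjusted p = 0.0164). Ddx4 (Vasa), a helicase of germ cells, was at 4.05 in day 0 replicate 3 and at 7.14 to 9.54 on the other day 0 arrays. Its change of −1.20 ± 0.87 did not pass (adjusted p = 0.343), and without that array it was −1.92 (adjusted p = 0.0498). None of the 13 enzymes of DNA methylation passed on the 12 arrays in limma, where 3 higher and 1 lower had an unadjusted p under 0.05: Dnmt3b, a de novo methyltransferase, changed by 0.13 ± 0.34 (adjusted p = 0.812), and its cofactor Dnmt3l by −0.80 ± 0.91 (adjusted p = 0.564), with 6.00 in day 11 replicate 3 against 9.81 to 11.75 on the other day 11 arrays.

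Heart muscle genes were among the largest rises. Of 30 sarcomere genes 11 rose and 1 fell, with a median change of 0.86, and without day 11 replicate 3 the counts were 15 and 1 with a median of 1.00. Leaving out day 11 replicate 1 left 7 higher. The mean level of the list was 6.19 to 6.92 at day 0 and 6.31 to 9.09 at day 11, highest in replicate 6 and lowest in replicate 3, followed by replicate 4 at 7.24. Replicate 4, the second lowest here, was the highest day 11 array for the pluripotency list.

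Tnnt2, the troponin T of heart muscle, lay between 4.70 and 6.21 (median 4.96) at day 0 and between 5.38 and 11.78 (median 9.71) at day 11. The other 5 day 11 arrays were at 8.21 or above, and replicate 3 lay inside the day 0 range. The change was 3.98 ± 0.85 (15.7-fold, adjusted p = 0.0075), and 4.75 without that array. Ttn, the giant spring protein titin, went from 3.91 to 4.96 (median 4.17) to 5.56 to 10.12 (median 8.40), a rise of 3.92 ± 0.66 (adjusted p = 0.00217) with no overlap. Of its 6 probe sets, the mean changed by 1.21. Actc1, the actin of heart muscle, was at 5.77 to 7.26 (median 6.46) and then at 6.39 to 12.54 (median 10.40), and rose by 3.56 ± 0.82 (11.8-fold, adjusted p = 0.0108). Myl7, the regulatory light chain of the atrium, was at 6.57 to 8.02 (median 7.13) and then at 7.01 to 12.72 (median 10.80), and rose by 3.14 ± 0.77 (8.79-fold, adjusted p = 0.0143). For both, the third day 11 array was again within the day 0 range. Tnni1, the slow troponin I of the embryonic heart, rose by 2.93 ± 0.62 (adjusted p = 0.00709) without overlap. Ttn and Tnni1 were also named among the largest rises without overlap, so for them its absence is no separate result. Of the 30 sarcomere genes 3 passed without overlap, against 7.61% over all genes. Myh7, the beta heavy chain, rose by 2.99 ± 0.76 (adjusted p = 0.0168).

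Actc1 and Myl7 carry a CArG box, the sequence bound by serum response factor in muscle genes, shortly before their start. They are printed as sarcomere genes that passed as higher.

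Actc1: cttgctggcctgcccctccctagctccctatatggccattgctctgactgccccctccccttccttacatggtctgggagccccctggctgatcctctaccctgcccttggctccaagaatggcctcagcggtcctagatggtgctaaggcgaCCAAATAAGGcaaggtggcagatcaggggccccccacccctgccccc
Myl7: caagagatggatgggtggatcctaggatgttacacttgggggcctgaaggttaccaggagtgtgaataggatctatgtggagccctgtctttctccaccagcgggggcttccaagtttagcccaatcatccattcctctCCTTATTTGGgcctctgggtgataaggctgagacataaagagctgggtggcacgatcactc

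These are the 200 bases before the start of each gene in RefSeq on GRCm38.p6, chr2:114052876-114053075 and chr11:5898783-5898982, both on the minus strand. The capitals mark the CArG box, 38 bases before the start in Actc1 and 52 bases in Myl7. The box was found on either strand in 8 of 34 promoters of the sarcomere list (23.5%), in 389 of 32851 promoters in all (1.18%), in 1 of 11 of the smooth muscle list (9.09%) and in 0 of 28 of the pluripotency list.

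Myh6, the alpha heavy chain, rose by 2.85 ± 0.93 (adjusted p = 0.0457), with 4.40 to 5.77 at day 0, 6.35 to 10.80 on 5 day 11 arrays and 4.08 in replicate 3. The call was lost when any array other than day 11 replicate 3 or 5 was left out, with changes of 2.26 to 3.04 and adjusted p of 0.0525 to 0.104. Ankrd1, a stress-responsive muscle protein that fibroblasts also make, fell by 2.02 ± 0.63 (adjusted p = 0.0389), and lost its call without any of day 0 replicates 3 to 6 or day 11 replicates 1, 2, 4 and 5, at 0.0504 to 0.0852. The 23 genes of calcium handling, channels and hormones gave 0 higher and 0 lower, with a median of 0.02. At an unadjusted limma p under 0.05 they were 4 and 1. In limma, 2 were higher without day 0 replicate 3 and 2 lower without day 0 replicate 1. Ryr2, the calcium release channel, changed by 0.94 ± 0.39 (adjusted p = 0.103), and passed without day 0 replicate 3 (1.20, adjusted p = 0.0254) or day 11 replicate 3 (1.17, adjusted p = 0.0327). Nppa, the atrial natriuretic hormone, stayed between 3.90 and 4.35 on the 12 arrays, and its change of 0.17 ± 0.08 did not pass (adjusted p = 0.160).

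Cardiac transcription factors gave 9 higher and 0 lower of 24, with a median of 0.71, and 13 and 0 without day 11 replicate 3. Hand2, a factor of the right ventricle and outflow tract, was at 4.75 to 5.56 (median 5.04) at day 0 and at 4.49 to 9.61 (median 8.84) at day 11. Replicate 3 was below the day 0 range and replicate 4, at 6.40, was the next lowest. It rose by 2.77 ± 0.74 (adjusted p = 0.0211), a call lost without day 11 replicate 1 or 2 (adjusted p = 0.0521 and 0.0522), with 0.17 and 0.25 on the remaining pair of probe sets. Tbx20 rose by 2.44 ± 0.53 (adjusted p = 0.00788), Mef2c by 2.30 ± 0.39 (adjusted p = 0.00235), Meis1 by 1.79 ± 0.45 (adjusted p = 0.0155) and Gata4 by 1.30 ± 0.29 (adjusted p = 0.00876). The other probe set of Gata4 changed by 0.07. Nkx2-5, an early factor of heart progenitors, rose by 0.76 ± 0.20 (adjusted p = 0.0200), from 6.16 to 6.38 to 6.43 to 7.74, without overlap. Mef2c differed from the rest in that the third day 11 array was among its higher values, at 8.94. Isl1, of the second heart field, changed by 1.19 ± 0.42 (adjusted p = 0.0628) and passed without day 11 replicate 3 (1.59, adjusted p = 0.00147). Tbx5, of the first heart field, stayed between 6.19 and 6.61 and did not pass (adjusted p = 0.928).

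**Figure D2:**
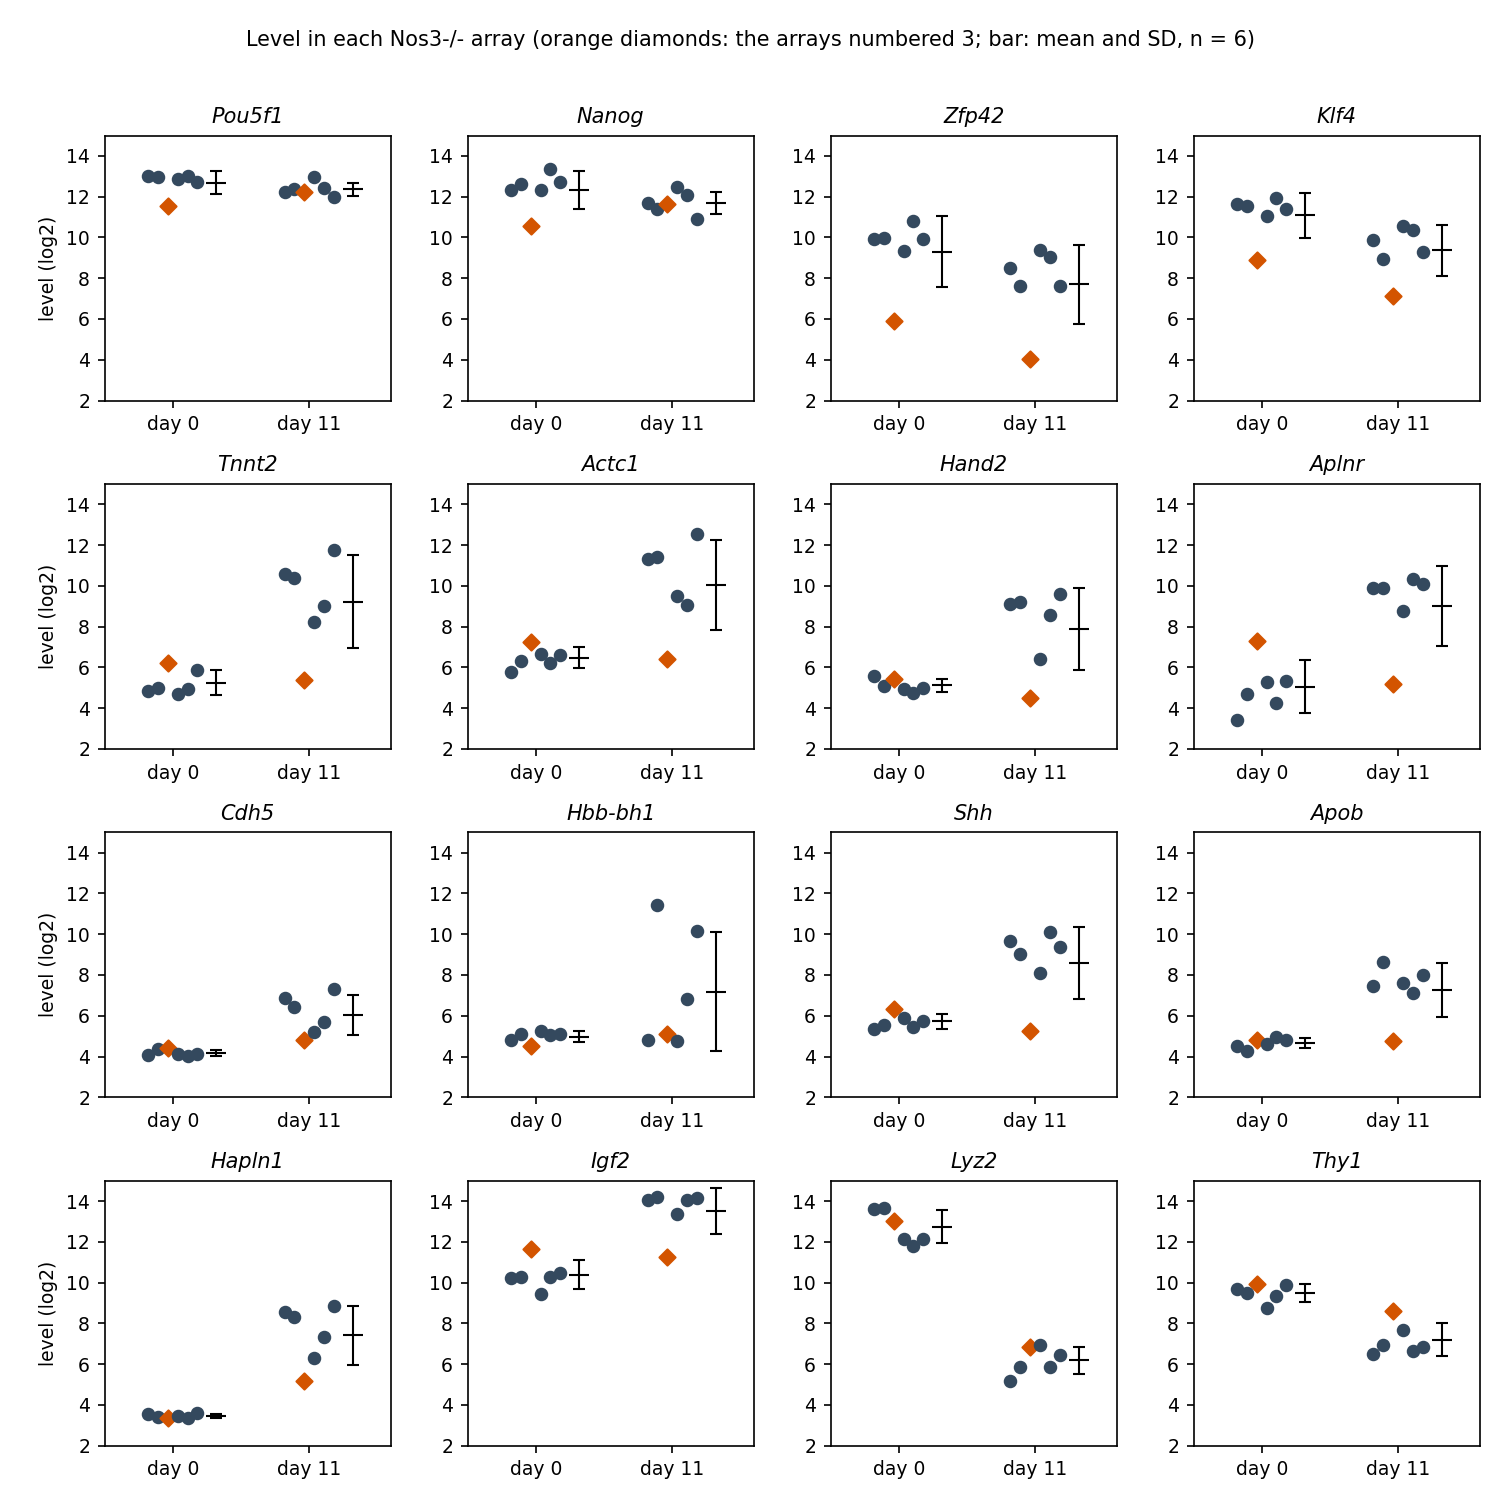
Level (log2) of 16 genes in each of the 12 arrays, by day, with orange diamonds for the arrays numbered 3 and a bar for the mean and SD (n = 6). Tnnt2, Actc1, Hand2, Shh and Apob are high on 5 day 11 arrays and near the day 0 range in replicate 3, Hbb-bh1 is high in day 11 replicates 2 and 6, and Lyz2 is separate between the days.

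Blood vessel genes rose in part. Of 37 endothelial genes 9 rose and 0 fell, against 8.85% and 11.9% over all genes, with a median of 0.37. Without day 11 replicate 3, 12 rose, against 12% over all genes. The count was 5 without any of day 0 replicates 1, 2, 4, 5 and 6 or day 11 replicates 1, 2 and 6. Aplnr, the apelin receptor of early mesoderm and vessels, was at 3.44 to 7.27 (median 4.97) at day 0 and at 5.18 to 10.32 (median 9.89) at day 11. Replicate 3 was the highest array at day 0 and the lowest at day 11. The rise was 3.98 ± 0.85 (15.7-fold, adjusted p = 0.00755). Cdh5, the cadherin of endothelial junctions, went from 4.03 to 4.41 (median 4.13) to 4.81 to 7.29 (median 6.05), without overlap, and rose by 1.86 ± 0.36 (adjusted p = 0.00474). Kdr, the main VEGF receptor, rose by 1.61 ± 0.38 (adjusted p = 0.0126). Pecam1, which pluripotent mouse cells also express, changed by 0.23 ± 0.33 (adjusted p = 0.654).

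Primitive red cell genes differed between the day 11 arrays. Hbb-bh1, an embryonic globin, was at 4.52 to 5.23 on the day 0 arrays, and at day 11 it was at 11.43 in replicate 2, 10.16 in replicate 6, 6.81 in replicate 5 and 4.75 to 5.08 in the other three. Hbb-y was at 9.79 and 9.28 in replicates 2 and 6 and at 4.70 to 4.77 in the rest, and Hba-x at 9.11 and 8.26 against 5.68 to 6.14. The same pair of arrays was high for the 3 globins. None passed, with changes of 2.21 ± 1.07 (adjusted p = 0.156), 1.76 ± 0.90 (adjusted p = 0.181) and 1.04 ± 0.54 (adjusted p = 0.182). The 4 measured markers of primitive red cells, these globins among them, gave 0 higher and 1 lower. The blood list gave 2 higher and 2 lower of 22, near the 8.85% and 11.9% over all genes. It gave 0 or 1 higher without day 0 replicate 4 or 6 or any day 11 array other than replicate 4.

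Endoderm and yolk sac genes rose in part. Endoderm factors gave 5 higher and 0 lower of 14 with a median of 0.53, and 3 higher without any of day 0 replicates 5 and 6 or day 11 replicates 1, 2 and 6. Without both arrays numbered 3 the count was 9. Shh, the signal of the notochord and gut endoderm, was at 5.35 to 6.34 (median 5.67) at day 0 and at 5.27 to 10.12 (median 9.21) at day 11, where replicate 3 was the lowest and the others were at 8.12 or above. It rose by 2.88 ± 0.65 (7.34-fold, adjusted p = 0.0101), while its other probe set changed by 0.05. Sox17 and Foxa2, early endoderm factors, did not pass: they changed by 0.98 ± 1.10 (adjusted p = 0.556) and 0.40 ± 0.84 (adjusted p = 0.769). Sox17 ran from 4.29 to 11.56 at day 0, highest in replicate 3 and lowest in replicate 1, and was at 5.24 in day 11 replicate 3 against 8.85 to 10.02 on the other day 11 arrays.

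Visceral endoderm and yolk sac genes gave 7 higher and 0 lower of 23, with a median of 0.28, and 8 higher without day 11 replicate 3. Apob, the scaffold of lipoproteins, was at 4.26 to 4.94 (median 4.69) at day 0 and at 4.77 to 8.62 (median 7.53) at day 11, with replicate 3 inside the day 0 range. It rose by 2.60 ± 0.49 (6.07-fold, adjusted p = 0.004), while its other probe set changed by −0.16. Lrp2 (megalin), an uptake receptor, rose by 1.67 ± 0.24 (adjusted p = 0.000913) from 6.32 to 7.73 (median 7.39) to 8.44 to 9.08 (median 8.79), and here the third day 11 array was the highest. Ttr, the carrier of thyroid hormone, rose by 1.85 ± 0.47 (adjusted p = 0.0164), and the mean of its 4 probe sets rose by 4.02. Afp, alpha-fetoprotein, rose by 1.38 ± 0.39 (adjusted p = 0.026), from 4.81 to 5.51 at day 0 to 5.16 to 7.84 at day 11. The Afp call was lost without day 0 replicate 5 or day 11 replicate 5 or 6, at 0.0520 to 0.0531. Its other probe sets changed by 3.15, 1.27, 0.2 and 0.13, and of these only the first passed.

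Most macrophage and feeder genes fell. Of 23 macrophage and mast cell genes 17 fell and 0 rose, with a median of −2.09, and 16 fell without day 11 replicate 3. The mean level of the list was 6.90 to 8.87 at day 0, highest in replicates 1 and 2, and 5.30 to 5.65 at day 11. Lyz2, the lysozyme of macrophages, was at 11.80 to 13.66 (median 12.58) at day 0 and at 5.19 to 6.92 (median 6.16) at day 11, a fall of 6.55 ± 0.38 (adjusted p = 2.46e-06). Lyz1 fell by 7.26 ± 0.43 (adjusted p = 2.46e-06), but the genes are near-identical copies whose probe sets may share signal, and the Lyz1 probe set without the suffix _x_at or _s_at fell by 0.42. Ctss, the lysosomal protease cathepsin S, was at 8.56 to 11.73 (median 10.03) and then at 4.55 to 5.32 (median 4.88), and fell by 5.21 ± 0.48 (36.9-fold, adjusted p = 7.53e-05). C1qa of complement fell by 3.63 ± 0.49 (adjusted p = 0.000687) and Tyrobp, a signalling adaptor of myeloid cells, by 3.32 ± 0.43 (adjusted p = 0.000595). For Lyz2, Ctss, C1qa and Tyrobp the days did not overlap. Lyz2 and Ctss were also named among the largest falls without overlap, so for them its absence is no separate result. In the macrophage and mast cell list 14 of 23 genes passed without overlap, against 7.61% over all genes. For each of Lyz2, Ctss, C1qa and Tyrobp, replicates 1 and 2 were the highest and replicate 5 the lowest day 0 array. Csf1r, the macrophage growth factor receptor, was at 7.18 to 10.87 at day 0 and at 7.81 to 8.04 at day 11, and its change of −0.87 ± 0.50 did not pass (adjusted p = 0.238). Mcpt8, a protease of basophils and mast cells, fell by 4.55 ± 0.56 (adjusted p = 0.000436).

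Ctss is printed as a gene of this group with the core GAGGAA, part of the sequence bound by PU.1, the master factor of macrophages.

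Ctss: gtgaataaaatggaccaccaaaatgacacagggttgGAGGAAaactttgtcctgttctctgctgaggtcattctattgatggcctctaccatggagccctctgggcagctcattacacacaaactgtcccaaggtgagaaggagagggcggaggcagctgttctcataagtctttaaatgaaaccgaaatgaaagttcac

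The stretch is chr3:95526586-95526785 on the plus strand, again the 200 bases before the start in RefSeq on GRCm38.p6, with the core in capitals 159 bases before it. On either strand the core was in 10 of 18 promoters of the macrophage list (55.6%), 6250 of 32851 in all (19%), 7 of 34 of the sarcomere list (20.6%) and 1 of 28 of the pluripotency list (3.57%). The Myl7 stretch also holds it, outside the capitals.

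Of 36 fibroblast and feeder genes 23 fell and 0 rose, with a median of −1.48, and the counts were the same without day 11 replicate 3. The mean level was 9.82 to 10.61 at day 0 and 8.23 to 9.29 at day 11, so the days did not overlap. S100a4, a calcium-binding protein of fibroblasts, was at 11.65 to 13.55 (median 12.95) and then at 7.64 to 11.57 (median 9.62), and fell by 3.35 ± 0.62 (10.2-fold, adjusted p = 0.00383). Mmp3, a matrix protease, fell by 3.11 ± 0.73 (adjusted p = 0.0115), Dcn, the proteoglycan decorin, by 2.33 ± 0.50 (adjusted p = 0.00806), and Thy1, a surface marker of fibroblasts, by 2.31 ± 0.33 (adjusted p = 0.00102). Thy1 was at 8.75 to 9.95 (median 9.57) at day 0 and at 6.49 to 8.60 (median 6.87) at day 11, highest there in replicate 3. Of the fibrillar collagen genes, Col1a1 changed by −0.65 ± 0.35 (adjusted p = 0.201), though its other probe set fell by 0.95 (adjusted p = 0.017). Col3a1 changed by −0.58 ± 0.32 (adjusted p = 0.206), with 9.55 to 11.23 still measured for Col3a1 at day 11.

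Tslp, Il6, Ccl2 and Ccl7, which encode secreted immune signals and are in none of the gene lists, were among the 15 largest falls without overlap. Tslp, an epithelial and fibroblast cytokine, was at 9.09 to 10.99 (median 10.03) and then at 3.70 to 6.23 (median 4.21), and fell by 5.38 ± 0.45 (41.5-fold, adjusted p = 3.61e-05). Il6 fell by 4.80 ± 0.34 (27.9-fold, adjusted p = 1.1e-05), Ccl2 by 4.13 ± 0.51 (adjusted p = 0.000466) and Ccl7 by 4.07 ± 0.44 (adjusted p = 0.000235), the latter pair being chemokines that attract monocytes. These 4 genes were named by a rule that required no overlap between the days, so its absence is no separate result. In the interferon list 12 of 22 fell and 0 rose, with a median of −0.69, and 13 fell without day 11 replicate 3. Ifit1, an antiviral protein induced by interferon, fell by 1.98 ± 0.26 (adjusted p = 0.000637), B2m, the light chain of MHC class I, by 1.25 ± 0.19 (adjusted p = 0.00128), and H2-D1, a class I heavy chain, by 1.23 ± 0.21 (adjusted p = 0.00264). The mean levels of the fibroblast and macrophage markers were also lower at day 11. The interferon, cytokine and falling matrix genes were named for their falls, so the shared direction is no separate result. The mean of 10 fibroblast markers went from 8.88 to 10.24 to 7.74 to 8.64, and that of 5 macrophage markers from 6.95 to 9.95 to 6.00 to 6.15. The part of fibroblasts and macrophages in those results was not tested.

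**Figure D3:**
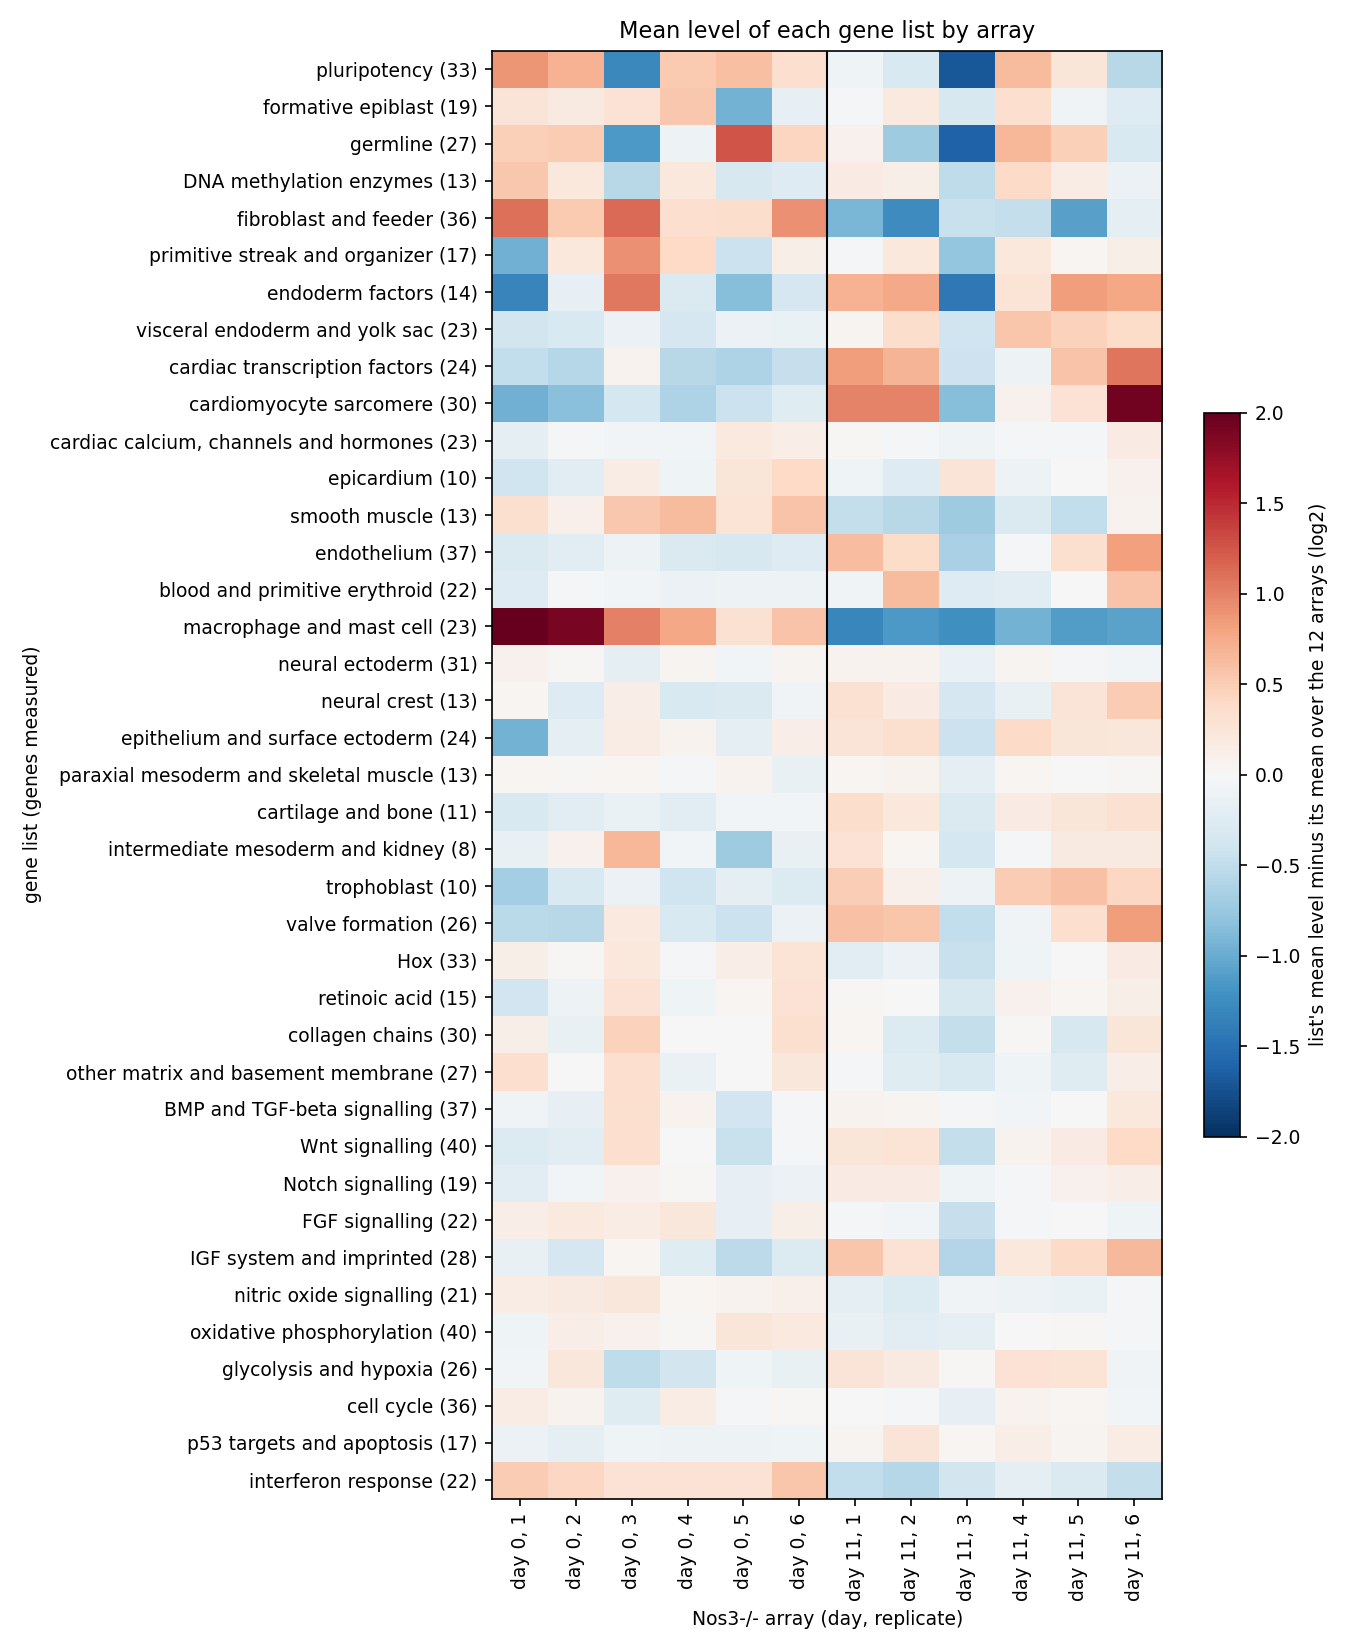
Mean level of each of the 39 gene lists in each array (columns), as the difference from the list's mean over the 12 arrays (log2, colour). Macrophage and fibroblast genes are high in the day 0 columns, sarcomere genes reach 9.09 in day 11 replicate 6, and day 11 replicate 3 is low for pluripotency, endoderm and heart lists together.

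Matrix genes moved in both directions. Of 26 genes of heart valve formation 8 rose and 3 fell, with a median of 0.46, and 12 rose without day 11 replicate 3. The number of rises was 5 without day 0 replicate 2 or day 11 replicate 1, 2, 5 or 6. Hapln1, which links hyaluronan to proteoglycans in the cardiac jelly, was at 3.35 to 3.58 (median 3.44) at day 0 and at 5.17 to 8.85 (median 7.82) at day 11. The days did not overlap, and replicate 3 was the lowest of day 11. In the valve list 4 of 26 genes passed without overlap, against 7.61% over all genes. Hapln1 was also named among the largest rises without overlap, so for this gene that is no separate result. It rose by 3.97 ± 0.53 (15.6-fold, adjusted p = 0.000637), and Vcan (versican), the proteoglycan it binds, by 1.98 ± 0.28 (adjusted p = 0.00095), from 8.13 to 9.02 to 9.78 to 11.26. The mean of the 8 probe sets of Vcan rose by 0.66. Fbn2, the fibrillin of embryonic tissue, rose by 3.75 ± 0.50 (13.5-fold, adjusted p = 0.000637). Col2a1, the collagen of cartilage and notochord, rose by 1.77 ± 0.34 (adjusted p = 0.00467). Postn (periostin), a matrix protein of valves and fibroblasts, fell by 1.25 ± 0.40 (adjusted p = 0.0421), a call lost without day 0 replicate 1, 3, 5 or 6 or day 11 replicate 1, 3, 4 or 5, at 0.0573 to 0.0824.

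Of 30 collagen chains 5 rose and 9 fell, or 7 and 9 without day 11 replicate 3, and Col5a2, a chain of fibrillar collagen V, fell by 2.57 ± 0.43 (adjusted p = 0.00216). Of 13 smooth muscle genes 6 fell and 0 rose, with a median of −0.76, and 7 fell and 1 rose without day 11 replicate 3. Actg2, a smooth muscle actin, was at 7.68 to 9.01 (median 8.28) and then at 4.97 to 6.41 (median 5.82), and fell by 2.68 ± 0.29 (adjusted p = 0.000238). Myl9, a smooth muscle light chain, fell by 2.34 ± 0.25 (adjusted p = 0.000218). The days did not overlap for either. Acta2, smooth muscle alpha-actin, changed by −0.78 ± 0.35 (adjusted p = 0.128) and passed without day 11 replicate 6 (−1.01, adjusted p = 0.0417). Bgn (biglycan), another small proteoglycan, fell by 2.77 ± 0.34 (adjusted p = 0.000456).

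Among ectoderm lists, neural crest genes gave 4 higher and 1 lower of 13, against 8.85% and 11.9% over all genes. Their median was 0.09, and the counts were the same without day 11 replicate 3. Of 31 neural genes 4 rose and 1 fell, against 8.85% and 11.9% over all genes. The median of the neural list was −0.03, and 3 of its genes fell without day 0 replicate 3. Sox11, a factor of neural and mesenchymal progenitors, rose by 1.51 ± 0.21 (adjusted p = 0.000721), from 9.00 to 9.95 to 10.69 to 11.76, and Fabp7, a lipid carrier of radial glia, by 1.57 ± 0.18 (adjusted p = 0.000306), from 4.62 to 5.34 to 5.86 to 6.97. Neither overlapped between the days. Lhx2, a forebrain factor, rose by 1.39 ± 0.35 (adjusted p = 0.0168). En2, of the midbrain, fell by 0.86 ± 0.28 (adjusted p = 0.0431), and the call was kept without day 0 replicate 3 or day 11 replicate 4 and lost without any other array, at 0.0624 to 0.087. Pax6 (−0.03 ± 0.08, adjusted p = 0.860) and Tubb3 (0.24 ± 0.30, adjusted p = 0.604), of neural progenitors and neurons, did not pass. Sox1, the early neural plate factor, changed by −0.17 ± 0.09 on the probe set used (adjusted p = 0.215), while its other probe set rose by 2.55. Olig1 changed by −0.47 ± 0.27 (adjusted p = 0.240) from a day 0 range of 9.79 to 11.25. Olig2, its neighbour in the oligodendrocyte programme, was at 3.46 and 3.24 in the arrays numbered 3 and at 5.46 to 8.25 in the others. It changed by −1.18 ± 0.81 (adjusted p = 0.318) and passed without day 0 replicate 3 (−1.84, adjusted p = 0.0473).

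Of 24 epithelial genes 2 rose and 1 fell, which is not above the 8.85% and 11.9% over all genes, and 7 rose without day 11 replicate 3. The number higher was 1 without day 0 replicate 2 or 5 or day 11 replicate 1, 2 or 6. Dsp, the desmosome protein desmoplakin, was at 7.28 to 11.57 (median 10.31) and then at 11.64 to 12.21 (median 11.96), without overlap. Its rise of 1.94 ± 0.56 (adjusted p = 0.0278) lost its call without day 0 replicate 2 or 5 or day 11 replicate 1, 2 or 6, at 0.0515 to 0.0584. Trp63, the p63 factor of stratified epithelia, rose by 1.32 ± 0.21 (adjusted p = 0.00165), and the mean of its 4 probe sets by 0.26. Krt8, a keratin of simple epithelium, spread over 9.21 to 14.13 at day 0 and did not pass (1.06 ± 0.67, adjusted p = 0.276). Plac1, a gene of the trophoblast, rose by 2.23 ± 0.28 (adjusted p = 0.00047). In that list 3 of 10 genes were higher, against 8.85% over all genes.

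Several of the genes with the largest rises without overlap belong to no group given above, and are described singly. Prtg (protogenin), of the early embryo, rose by 2.62 ± 0.40 (adjusted p = 0.0014), from 8.50 to 9.70 to 9.82 to 12.38. Fras1, an extracellular matrix protein under embryonic epithelia, rose by 2.55 ± 0.21 (adjusted p = 3.69e-05), Npnt (nephronectin), an integrin ligand, by 2.37 ± 0.38 (adjusted p = 0.00182), and Dsc2 (desmocollin), a desmosomal cadherin, by 2.33 ± 0.41 (adjusted p = 0.00267). Mid1, a ubiquitin ligase on microtubules, rose by 2.31 ± 0.33 (adjusted p = 0.00094). For Fras1 and Npnt, day 11 replicate 3, at 7.67 and 9.28, lay within the range of the other day 11 arrays, and for Dsc2 it was the lowest, at 9.25.

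BMP and TGF-beta genes gave 11 higher and 8 lower of 37, with a median of 0.13, and 14 and 10 without day 11 replicate 3. Among ligands, Bmp5 rose by 3.08 ± 0.38 (8.45-fold, adjusted p = 0.00046), from 5.19 to 5.44 (median 5.35) to 6.64 to 9.20 (median 8.95), and Tgfb2 by 1.72 ± 0.39 (adjusted p = 0.0103), from 5.93 to 8.30 to 8.52 to 9.83. The activin subunits Inhbb and Inhba fell by 3.01 ± 0.39 (adjusted p = 0.000599) and 2.31 ± 0.29 (adjusted p = 0.000523). None of these ligands overlapped between the days. Bmp5 was also named among the largest rises without overlap, so for this gene that is no separate result. In this list 9 of 37 genes passed without overlap, against 7.61% over all genes. Grem1, an inhibitor of BMPs, fell by 1.77 ± 0.41 (adjusted p = 0.0105). The BMP target genes Id1, Id2 and Smad6 rose by 1.52 ± 0.29 (adjusted p = 0.0039), 1.43 ± 0.31 (adjusted p = 0.00744) and 1.53 ± 0.34 (adjusted p = 0.00978). Id2 did not overlap between the days, with 9.04 to 10.70 and then 10.72 to 12.19.

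Of 40 Wnt genes 5 rose and 2 fell, against 8.85% and 11.9% over all genes. The rises were 9 without day 0 replicate 3 and 10 without day 11 replicate 3. The receptor Fzd3 rose by 1.59 ± 0.29 (adjusted p = 0.00315), or by 0.39 for the mean of its 6 probe sets. Dkk2, a secreted modulator of Wnt, fell by 2.83 ± 0.51 (adjusted p = 0.00304), and the related Dkk3 by 1.55 ± 0.19 (adjusted p = 0.00049). Of 19 Notch genes 2 rose, near the 8.85% over all genes, and 4 rose without day 11 replicate 3. The 2 were the receptors Notch1 (0.62 ± 0.10, adjusted p = 0.0018) and Notch2 (0.85 ± 0.23, adjusted p = 0.0200), both without overlap. With the mean of its probe sets the Notch2 call was lost (limma, adjusted p = 0.0579). Fgf7, the keratinocyte growth factor made by mesenchyme, fell by 3.56 ± 0.54 (11.8-fold, adjusted p = 0.00126), from 8.14 to 10.28 (median 9.12) to 4.10 to 7.78 (median 5.34). It was among 3 lower and 1 higher of 22 FGF genes, near the 11.9% and 8.85% over all genes. The number higher was 2 without either array numbered 3. Of 33 Hox genes 7 fell and 0 rose, against 11.9% and 8.85% over all genes. Without day 11 replicate 3, 4 rose, near the 12% over all genes. Hoxa10 fell by 1.66 ± 0.17 (adjusted p = 0.000137) and Hoxd13 by 1.60 ± 0.19 (adjusted p = 0.000384), both genes of the posterior body. Meis2, a cofactor of Hox proteins, was at 6.24 to 6.84 (median 6.52) and then at 8.61 to 10.24 (median 9.53), and rose by 2.90 ± 0.25 (7.46-fold, adjusted p = 3.87e-05). Crabp1, which binds retinoic acid in the cell, fell by 2.25 ± 0.39 (adjusted p = 0.00246).

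**Figure D4:**
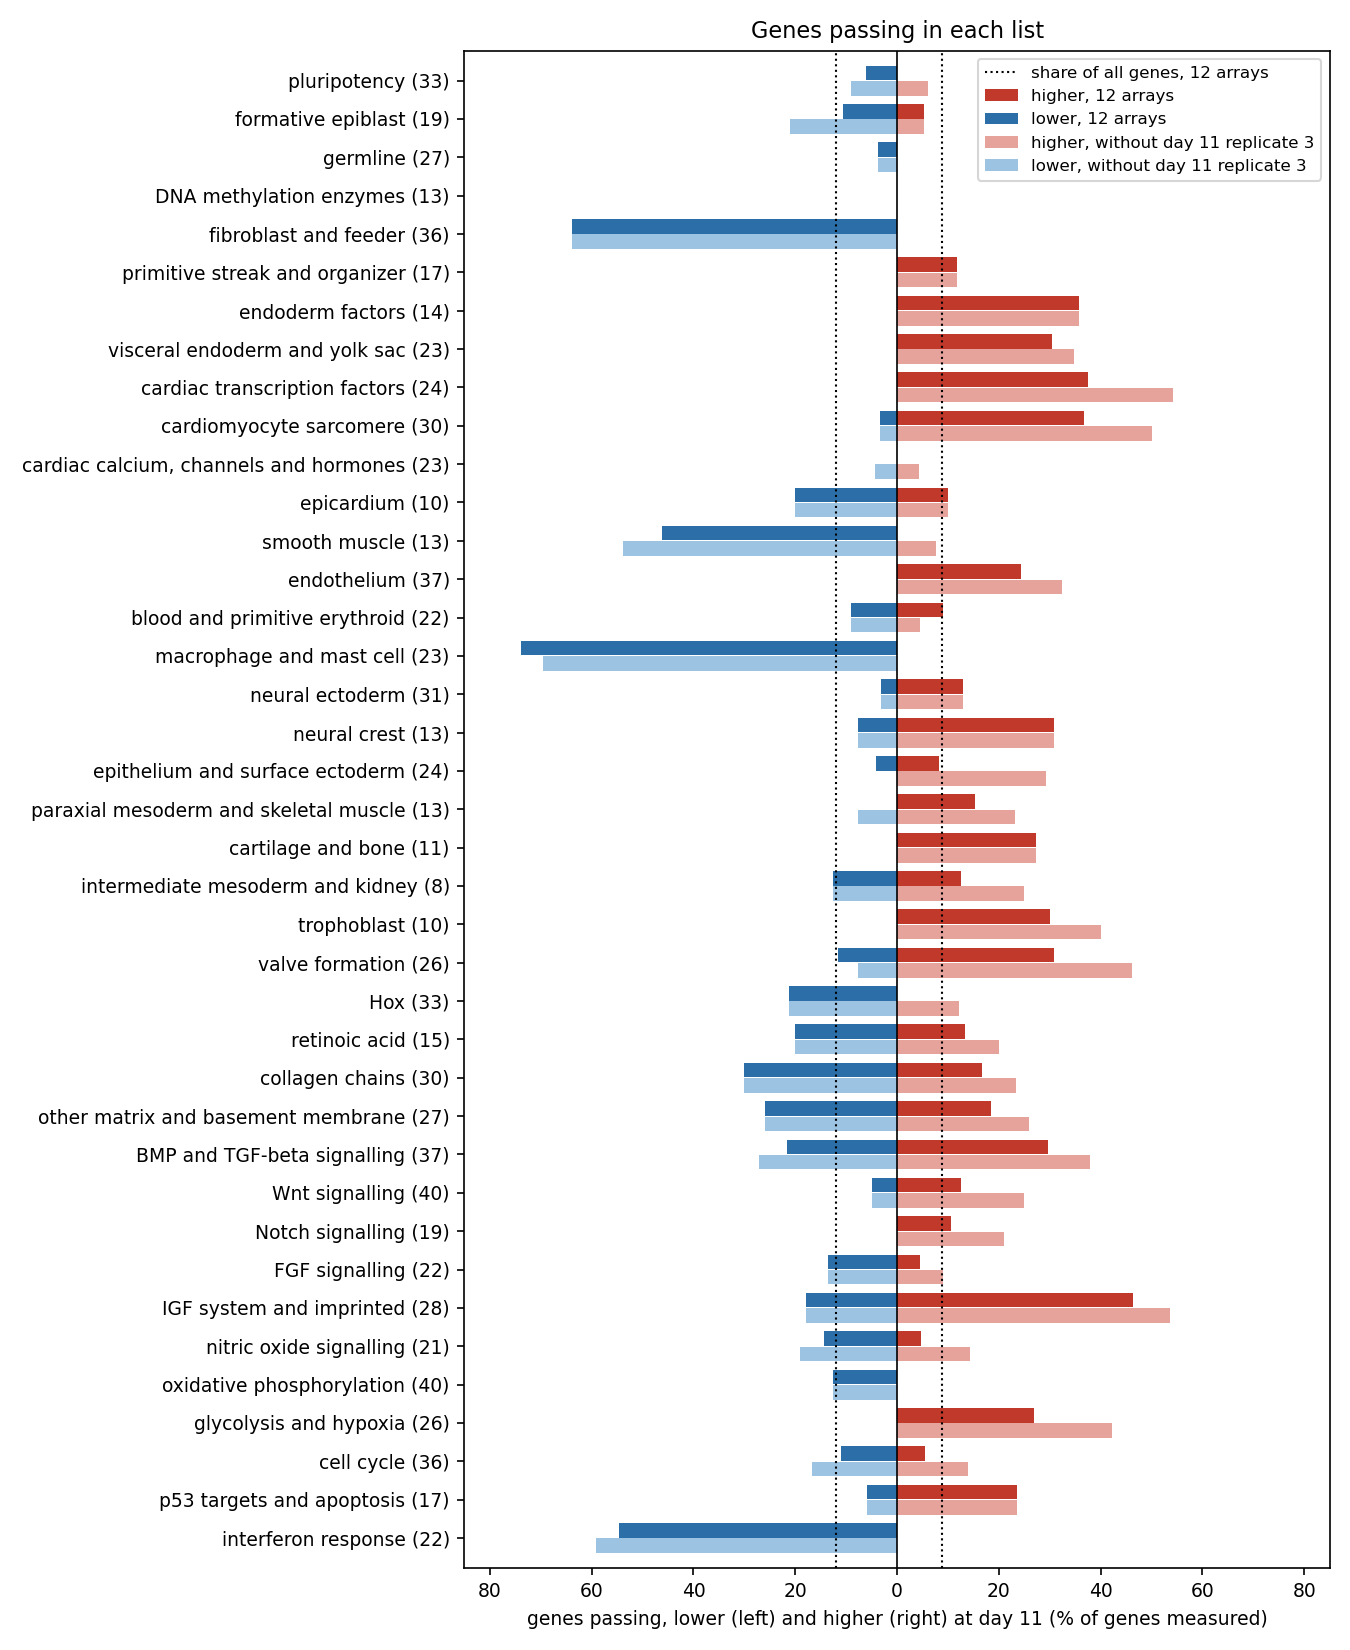
Genes passing in each of the 39 lists, lower to the left and higher to the right, as a percentage of the genes measured, for 12 arrays (dark bars) and without day 11 replicate 3 (light bars). The dotted lines mark 11.9% lower and 8.85% higher over all genes.

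Growth and imprinted genes were a group with many rises, 13 higher and 5 lower of 28, with a median of 0.61, and 15 and 5 without day 11 replicate 3. Igf2, the fetal growth factor, was at 9.45 to 11.63 (median 10.28) at day 0 and at 11.26 to 14.18 (median 14.05) at day 11. Replicate 3 was the highest array at day 0 and the lowest at day 11, and the days overlapped through these arrays. The rise was 3.12 ± 0.49 (8.70-fold, adjusted p = 0.00159), and 3.57 without day 11 replicate 3. Igfbp5, an IGF-binding protein, rose by 3.88 ± 0.62 (adjusted p = 0.0018) on the probe set used, while its other probe set changed by −0.033. Igfbp7, a related secreted protein, fell by 3.05 ± 0.43 (adjusted p = 0.000846), while its other probe sets changed by 0.08 and −0.59. Zdbf2 rose by 2.03 ± 0.54 (adjusted p = 0.0196). Cdkn1c, the imprinted cyclin kinase inhibitor p57, rose by 2.56 ± 0.78 (adjusted p = 0.0352), with 6.86 in day 11 replicate 3 against 10.78 to 12.11 on the other day 11 arrays. That call was kept without day 0 replicate 4 or 5 or day 11 replicate 3 and lost without any of the others, at 0.0522 to 0.0795.

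The genes of the Dlk1-Meg3 imprinted cluster moved apart. Dlk1, which is expressed from the paternal copy, was at 5.58 to 7.36 (median 5.83) and then at 5.57 to 10.56 (median 9.60), and rose by 2.88 ± 0.72 (adjusted p = 0.0156), while its other probe set changed by 0.06. Replicate 3, at 5.57, was just below the day 0 range. The maternally expressed RNA Rian was at 9.32 to 10.94 (median 10.33) and then at 5.96 to 7.82 (median 6.86), and fell by 3.37 ± 0.32 (10.4-fold, adjusted p = 8.07e-05). Meg3 fell by 2.40 ± 0.49 (adjusted p = 0.00571), with 8.50 to 11.36 and then 7.19 to 8.98, which overlapped.

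Of 21 genes of nitric oxide signalling 1 rose and 3 fell, near the 8.85% and 11.9% over all genes. Without day 11 replicate 3, 3 rose and 4 fell. Cav1 (caveolin-1), the membrane protein that binds and restrains endothelial nitric oxide synthase and is abundant in fibroblasts, was at 11.06 to 12.05 (median 11.63) and then at 8.34 to 10.38 (median 9.41), and fell by 2.29 ± 0.32 (adjusted p = 0.00076). Gch1, which starts the synthesis of the enzyme's cofactor tetrahydrobiopterin, fell by 1.73 ± 0.21 (adjusted p = 0.000418), and Ddah1, which breaks down its inhibitor dimethylarginine, by 1.01 ± 0.20 (adjusted p = 0.00481). Pde5a, the phosphodiesterase that degrades the cyclic GMP made in response to nitric oxide, rose by 1.36 ± 0.22 (adjusted p = 0.00176), from 6.30 to 7.40 to 7.59 to 8.58. The days did not overlap for these 4 genes, which are the list's passing ones, and 7.61% of all genes passed without overlap.

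Glycolysis genes rose in part. Of 26 genes of glycolysis and hypoxia 7 rose and 0 fell, against 8.85% and 11.9% over all genes, with a median of 0.29. The count was 11 without day 11 replicate 3 and 4 without day 0 replicate 2 or 5 or day 11 replicate 1, 2, 5 or 6. Slc2a1, the glucose transporter Glut1, rose by 0.72 ± 0.09 (adjusted p = 0.000381), from 12.87 to 13.22 to 13.56 to 13.88, and Egln1, the oxygen-sensing hydroxylase, by 0.93 ± 0.17 (adjusted p = 0.00306). Of 40 genes of oxidative phosphorylation 5 fell, near the 11.9% over all genes, and 0 rose, with a median of −0.21, and 2 or 3 fell without day 0 replicate 2, 5 or 6 or day 11 replicate 1 or 2. The cell cycle list gave 2 higher and 4 lower of 36, which is not above the 8.85% and 11.9% over all genes, and 5 and 6 without day 11 replicate 3. Leaving out any other single array gave 1 higher, except day 0 replicate 4 or 5, which gave 2. Mki67, the proliferation marker Ki-67, rose by 0.77 ± 0.17 (adjusted p = 0.00893), from 10.61 to 11.14 (median 11.09) to 11.35 to 12.53 (median 11.69), without overlap. The inhibitors Cdkn2a and Cdkn2b, which are high in cultured fibroblasts, fell by 1.30 ± 0.28 (adjusted p = 0.00837) and 1.36 ± 0.26 (adjusted p = 0.00466). Cdkn1a (p21), a target of p53, changed by 0.23 ± 0.11 (adjusted p = 0.151). Of 17 p53 and apoptosis genes 4 rose and 1 fell, against 8.85% and 11.9% over all genes. Without day 0 replicate 3, 7 of them rose.

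The change over time was then set against that of the control cells, as the difference between genotypes in a fit over the 31 arrays. Of the 18194 genes 186 passed (1.02%), of which 91 had also changed over time in the Nos3-/- cells. The count lay between 79, without Nos3-/- day 0 replicate 5, and 644, without Nos3-/- day 0 replicate 3, and was 482 without Nos3-/- day 11 replicate 3. It was 92 to 123 without Nos3-/- day 0 replicate 2 or 6, Nos3-/- day 11 replicate 1 or 6, control day 0 replicate 2, 3 or 7, or control day 11 replicate 8. None of the 30 sarcomere genes, 24 cardiac factors or 23 macrophage genes passed this test in limma, and 3, 6 and 1 of them had an unadjusted p under 0.05. These counts of 0 are near the 1.02% over all genes. Of the 39 lists, the Wnt list had 5 of 40 passing, the fibroblast and feeder list 4 of 36, the formative epiblast list 3 of 19, the Hox list 3 of 33 and each other list 0 to 2. Tnnt2 changed by 4.42 in control cells and 3.98 in Nos3-/- cells, a difference of −0.45 (adjusted p = 0.855), and Afp by 5.09 against 1.38, a difference of −3.71 (adjusted p = 0.064). In the limma fit over the 31 arrays the Afp rise in Nos3-/- cells did not pass (adjusted p = 0.18).

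Plagl1 (Zac1), an imprinted zinc finger gene of the fetal heart and other tissues, had the lowest adjusted p of the difference among the genes described here. In control cells it went from 9.69 ± 0.32 (SD, n = 10) to 13.1 ± 0.81 (SD, n = 9). In Nos3-/- cells it was at 6.64 to 8.26 (median 7.21) at day 0 and 4.84 to 7.66 (median 6.87) at day 11, so its change was −0.67 ± 0.44 against 3.40. The difference was −4.07 ± 0.50 (adjusted p = 4.16e-05). Postn rose by 1.54 in control cells, and the difference was −2.79 ± 0.54 (adjusted p = 0.0108). Lefty1, Grem1, Bgn and Cav1 went down further in control cells, by 3.93, 4.39, 4.68 and 4.05. Their differences were 2.81 ± 0.46 (adjusted p = 0.0021), 2.62 ± 0.51 (adjusted p = 0.0103), 1.91 ± 0.39 (adjusted p = 0.0163) and 1.76 ± 0.37 (adjusted p = 0.0199). These 6 differences passed in each of the 31 omissions of 1 array. Fgf5 changed by −3.54 in control cells and −0.49 in Nos3-/- cells, a difference of 3.05 ± 0.76 (adjusted p = 0.0469) that was lost in 24 of the 31 omissions, with an adjusted p of up to 0.102. It was kept without Nos3-/- day 0 replicate 3 or 4, Nos3-/- day 11 replicate 3, control day 0 replicate 1 or 9, or control day 11 replicate 2 or 6. The En2 difference of −1.20 ± 0.26 (adjusted p = 0.0228) was lost without Nos3-/- day 0 replicate 6 (adjusted p = 0.0508).

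**Figure D5:**
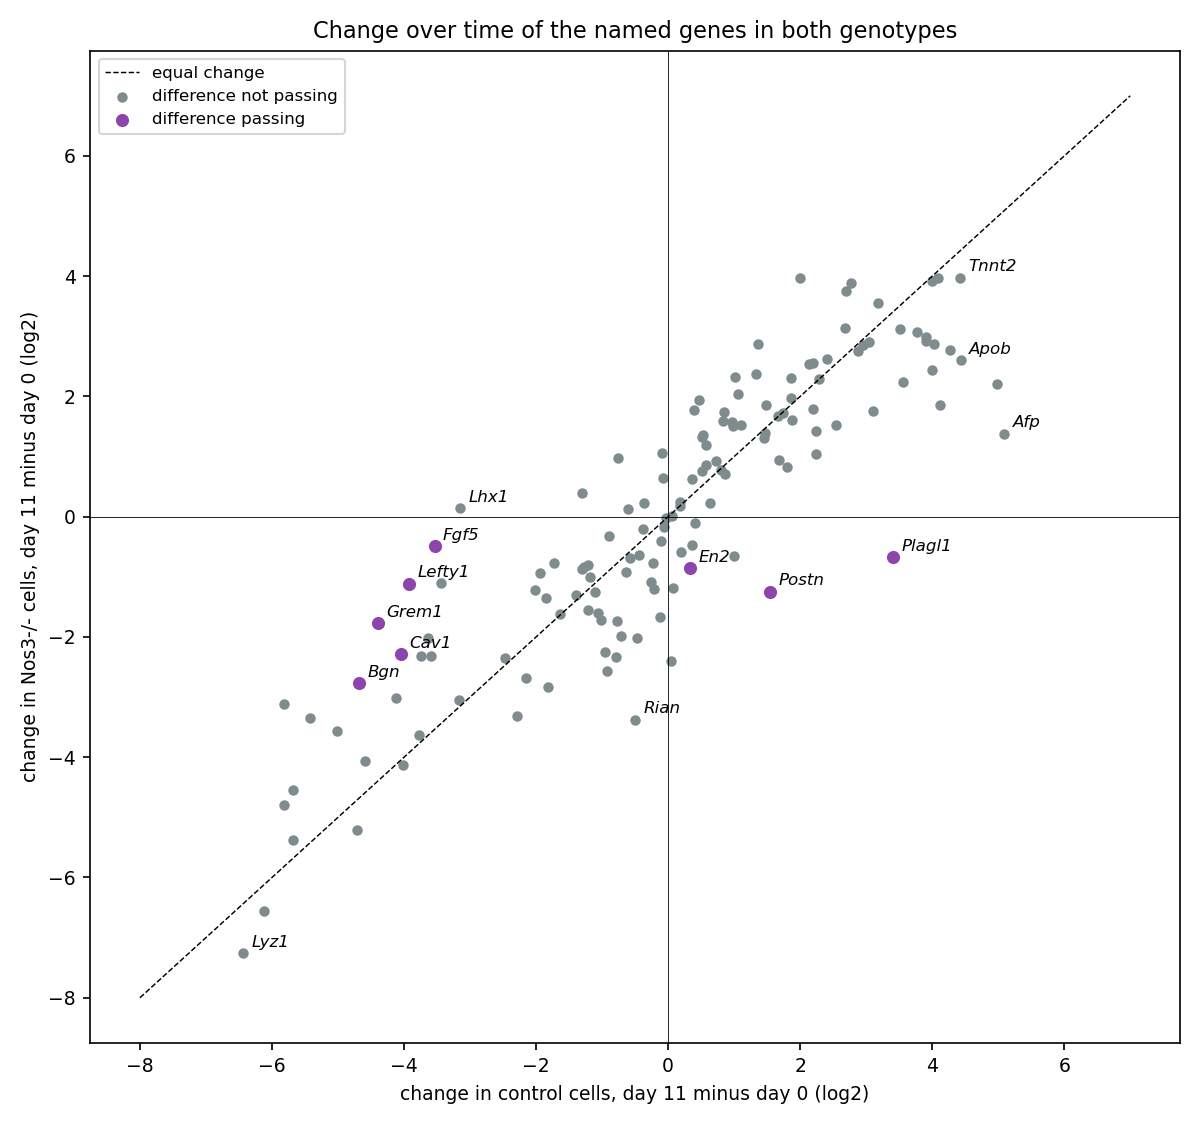
Change from day 0 to day 11 of the genes described here, in control cells (x axis, log2) and in Nos3-/- cells (y axis, log2), with the genes whose difference passed in purple and a dashed line of equal change. Plagl1 and Postn lie below the line, at 3.40 and −0.67 and at 1.54 and −1.25, and Lefty1, Grem1, Bgn, Cav1 and Fgf5 lie above it.

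The arrays numbered 3 were low for pluripotency genes on each day and differed in what was high. At day 0, replicate 3 had the largest excess over the mean of the other 5 for Lhx1, an organizer and endoderm factor (12.47 against 4.60 to 9.64), followed by Sox17 (11.56), Spink1, a trypsin inhibitor (13.45 against 6.23 to 11.34), and Tph1, an enzyme of serotonin synthesis (11.59 against 4.41 to 8.82). At day 11, replicate 3 had its largest excess for Gpha2, a glycoprotein hormone subunit, at 12.42 against 6.06 to 6.39, and for Krtdap, a keratinocyte differentiation protein, at 11.39 against 4.56 to 6.77. It was at 3.79 for Slc38a4, an imprinted amino acid transporter, against 9.59 to 11.47, and at 5.22 for Lhx1 against 8.97 to 9.59. Slc38a4 was also low in day 0 replicate 3, at 4.64 against 8.24 to 10.89 on the other day 0 arrays. In both arrays numbered 3 it had the largest deficit from the mean of the other 5. These genes were chosen for their spread on these arrays and were not tested as a group. Without day 11 replicate 3, Gpha2 changed by −0.39 (adjusted p = 0.0172), Krtdap by −1.40 (adjusted p = 0.0340) and Spink1 by 3.31 (adjusted p = 0.0285), and without day 0 replicate 3 Spink1 changed by 3.48 (adjusted p = 0.0159). On the 12 arrays none of the 3 passed, with changes of 0.64 ± 0.92 (adjusted p = 0.652), −0.40 ± 0.97 (adjusted p = 0.800) and 2.76 ± 1.03 (adjusted p = 0.0747).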

How the data were processed

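RNA of mouse iPSCs and embryoid bodies was hybridized as biotinylated cRNA, from 100 ng of total RNA, to 1 Affymetrix array per sample. The deposited log2 values are the authors' RMA output, per the submitters' processing notes. No source used here gives a version, filter or batch step. On the 12 arrays they run from 2.52 to 15.01, with 0 missing values and array medians of 6.13 to 6.22. RMA normalizes arrays to a shared distribution of probe intensities, so a shift of most genes in one direction would not be seen. No detection calls were used, so low levels are not told from background.

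Symbols came from the platform table: 34958 probe sets have 1 symbol, 932 several and 9211 none, and 34754 matched RefSeq genes of GRCm38.p6. Of the 18194 genes, 9012 have several probe sets, and the one with the highest mean was used. The main test was limma 3.58.1 in R 4.3.3 on the 12 arrays, with 10 residual degrees of freedom and a prior of 2.722. The difference between genotypes was fitted over the 31 arrays with 4 group means. The code was tested on simulated data.

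Members and the 39 gene lists were chosen with earlier results of these data known. The text may name Nos3, the 15 largest rises and 15 largest falls without overlap, a set of key genes, of each list the 6 strongest passing rises, the 6 strongest passing falls and 3 high genes not passing, and the 5 genes with the highest SD on each day. The genes printed are a part of these, picked after the effects of leaving out arrays were known: 44 of the 204 passing genes allowed (21.6%) lost a call in some omission, against 11 of the 101 printed (10.9%). Of those 101 genes, 58 have several probe sets, and for 27 of them another probe set did not pass the same way, with 0 passing in the opposite direction.

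Alternatives were quantile normalization, centring on array medians, dropping probe sets of low mean level at either of 2 limits, averaging the probe sets of each gene, dropping _x_at and _s_at probe sets, limma's trend with robust estimation, weights per array, a fit over the 31 arrays, a replicate block and single omissions of each array. Without both arrays numbered 3 was added after seeing the data. The days share replicate numbers 1 to 6, but the labels do not say that same-numbered arrays are pairs, so the main test had no block. The deviations of same-numbered arrays from their group means correlated at −0.02 to 0.29. A correlation over all genes cannot decide whether the arrays are pairs. Promoters are the 200 bases before each RefSeq start.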

Additional observations from a re-analysis of the deposited data

Results flagged for a closer look

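Within each day, 39 of 284 sets of 6 values (142 genes on 2 days) had a highest or lowest array separated from the rest by more than Dixon's limit, where chance gives about 1 in 20. Some of these genes were picked for a high SD on one of the days, so that rate is no measure for the count. In 18 sets day 11 replicate 3 was the lowest: Zfp42 at 4.06, Eras at 8.51, Dppa5a at 10.33, Fgf5 at 8.57, Dnmt3l at 6.00, Meis1 at 4.88, Aplnr at 5.18, Sox17 at 5.24, Foxa2 at 6.22, Krt8 at 12.34, Igf2 at 11.26, Cdkn1c at 6.86, Ddah1 at 9.03, Prtg at 9.82, Slc38a4 at 3.79, Lhx1 at 5.22, Spink1 at 9.86 and Tph1 at 5.47. The same array was the highest for Gpha2 at 12.42 and Krtdap at 11.39.

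Day 0 replicate 3 was the lowest in 7 sets, Pou5f1 at 11.55, Nanog at 10.57, Sox2 at 10.07, Zfp42 at 5.92, Klf4 at 8.87, Esrrb at 6.85 and Dppa5a at 12.57. It was the highest in 7 more, Tbx20 at 6.81, Gata4 at 6.38, Ryr2 at 5.99, Fbn2 at 7.26, Col2a1 at 7.71, Postn at 10.50 and Id1 at 10.87. Day 0 replicate 5 was the lowest for Sall2 at 5.91, Col1a1 at 8.21 and Mki67 at 10.61, day 0 replicate 4 for Dcn at 7.49 and day 0 replicate 1 for Krtdap at 5.27.

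The change over time differed between genotypes, by the test of the difference itself in limma, for 8 of the genes described. The change in Nos3-/- cells minus that in control cells was −4.07 for Plagl1, −2.79 for Postn, −1.20 for En2, 3.05 for Fgf5, 2.81 for Lefty1, 2.62 for Grem1, 1.91 for Bgn and 1.76 for Cav1.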

How the results depend on the processing

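The 3768 calls became 3660 with quantile normalization, 3639 with arrays centred on their medians, 3680 with trend and robust, 3687 with probe sets averaged per gene and 3734 without _x_at and _s_at probe sets. With array weights they were 6100, of which 2666 were higher and 3434 lower, and 1182 genes differed between genotypes. The fit over the 31 arrays gave 3253 lower genes, dropping probe sets below the median level gave 1434 lower genes, and the mean of probe sets gave 190 genes at least 2-fold higher. Without both arrays numbered 3, 2548 were higher, 471 at least 2-fold higher, and 1099 differed between genotypes. Leaving out 1 array gave 2385 to 4791 calls, 1018 to 2180 higher, 1345 to 2611 lower, 602 to 951 at least 2-fold (233 to 389 higher, 366 to 568 lower), and 79 to 644 for the difference between genotypes. The causes were not tested.

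With a replicate block there were 3781 calls, and 122 genes differed between genotypes. Of the genes described, Zfp42, Klf4, Dppa5a and Lefty1 passed with the block (adjusted p = 0.0103, 0.00405, 0.0419 and 0.0102), and Eras and Postn did not (0.0621 and 0.0609), with the same changes. Replicate 5 was the only number whose arrays correlated best with each other. Among single genes, Tfrc turned to −0.28 with the mean of its probe sets, and Hnf4a to −0.022 and Igfbp5 to −0.033 without _x_at and _s_at probe sets. Signal over background could not be judged, and 2 of the 12 arrays standing apart limit what 6 arrays a day can show.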
